A study of Drosophila melanogaster with 3 samples.

Results

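The microRNA genes of Drosophila melanogaster were examined in a chromatin immunoprecipitation sequencing (ChIP-seq) experiment on CG8632, which the annotation names ZnT49B after the ZnT family of zinc transporters. The members were all genes whose symbol begins with mir- in the dm6 annotation. There were 260 such genes among 17796 annotated genes on the main chromosomes. Hairpins on the same strand and at most 10 kb apart were joined, which gave 203 clusters, 181 of them with a single hairpin and 22 with several (79 hairpins). The median annotated hairpin length was 92 bp.

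The chromatin came from whole Drosophila at the white prepupa stage, when the larva has just formed its puparium. Males and females were pooled, and their age was recorded as unknown. All animals came from a transgenic line that stably expressed CG8632 with green fluorescent protein (eGFP) at its C-terminus, and the precipitating antibody was directed against GFP. Sonication gave fragments labelled as 200 to 800 bp. The 3 samples were biological replicates of 1 group, so no conditions could be compared, and control samples were not analysed here. Whether the recovered DNA depended on the fusion protein was not tested. Whole animals mix all tissues, and peak lists hold no expression values, so the stage and tissue could not be checked against marker genes.

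MicroRNAs are short RNAs that repress messenger RNAs carrying matches to their seed, the bases near the 5′ end. RNA polymerase II transcribes a long primary transcript, from which Drosha and then Dicer cut the hairpin and the mature RNA. The annotated microRNA gene is the hairpin only, and the promoter often lies kilobases away or belongs to a host gene when the hairpin sits in an intron. In flies, puparium formation follows a pulse of the steroid hormone ecdysone, and let-7, mir-100, mir-125, mir-34, mir-14 and mir-8 are known for links to ecdysone and to developmental timing.

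All 260 hairpins matched records of the RefSeq annotation of the Release 6 genome (dm6), which lists 481 mature arms for them. The mature sequences of hairpins whose upstream regions are described in the results are shown here, with the seed (bases 2 to 8) in capitals, so that family members at different places in the genome can be recognised.
mir-279 3p: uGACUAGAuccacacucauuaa
mir-996 3p: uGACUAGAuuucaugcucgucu
mir-282 5p: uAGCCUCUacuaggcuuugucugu
mir-9a 5p: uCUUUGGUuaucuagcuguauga
mir-9b 5p: uCUUUGGUgauuuuagcuguaug
mir-9c 5p: uCUUUGGUauucuagcuguaga
mir-ban 3p: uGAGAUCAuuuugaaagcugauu
mir-let7 5p: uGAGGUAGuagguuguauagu
mir-34 5p: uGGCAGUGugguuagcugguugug
mir-275 3p: uCAGGUACcugaaguagcgcgcg
mir-276a 3p: uAGGAACUucauaccgugcucu
mir-276b 3p: uAGGAACUuaauaccgugcucu
mir-92a 3p: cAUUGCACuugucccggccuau
mir-92b 3p: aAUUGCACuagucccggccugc
mir-2a-2 3p: uAUCACAGccagcuuugaugagc
mir-2b-2 3p: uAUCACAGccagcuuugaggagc
The seed GACUAGA is shared by mir-279 and mir-996, CUUUGGU by the mir-9 genes, AGGAACU by both mir-276 genes, AUUGCAC by both mir-92 genes and AUCACAG by the mir-2 genes.

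Peaks were taken from the authors' lists on dm6. The set of optimal peaks that passed the authors' irreproducible discovery rate (IDR) step held 6469 peaks, called IDR peaks here. The authors' peak caller gave each a signal value, and rank 1 is the strongest. The set equalled the top 6469 calls by signal in the list made on pooled reads, so replicate values given beside a peak come from each replicate's own relaxed list. Those lists held 30000, 29322 and 30000 calls in replicates 1, 2 and 3, background calls included. A window reached from 10 kb upstream of a cluster's first hairpin to the end of the cluster, and a peak was counted when its summit lay inside. The depth behind the peaks is unknown, and the scaling of the signal between libraries is not given in the sources used here. A standard deviation (SD) of the signal over the 3 replicates may therefore include a difference in scale.

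As a group, microRNA clusters carried peaks about as often as other genes. The windows of 81 of 203 clusters held an IDR peak, or 39.9% (Wilson 95% interval 33.4 to 46.8, which covers counting of clusters only). The 10 kb upstream of all other genes held one in 39.2% of 17536 genes, and that of other non-coding genes in 34.9% of 3568. With host promoters included, 83 clusters had a peak. In each replicate's strongest 6469 calls, 38.9%, 40.4% and 41.4% of the cluster windows held a call, a mean of 40.2% ± 1.24 (SD, n = 3). Other genes gave 39.9% ± 0.175 in the same lists, and the difference of 0.335 ± 1.07 percentage points was smaller than its SD.

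The number of peaks per window was uneven. Of the 203 windows, 122 held no IDR peak, 38 held 1 and 43 held at least 2, up to 9 upstream of mir-275 and mir-305. The mean was 0.872 peaks per window, and the 10 kb upstream of other genes held a mean of 0.657. The 177 window peaks lay in 160 separate regions. Their median rank was 2907, against 3235 for the IDR set, and their median signal was 205.5 against 189.4. Of the 177, 124 (70.1%) overlapped a call among the strongest 6469 in all 3 replicates, as did 65.4% of the IDR set.

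The hairpins themselves were rarely at a peak. An IDR summit lay within 500 bp of the hairpin start for 9 of 260 microRNA genes, or 3.46% (Wilson 95% interval 1.83 to 6.45), and within 500 bp of a start for 7.79% of other non-coding genes. The 9 were mir-966, mir-275, mir-4974, mir-8, mir-276a, mir-92b, mir-4962, mir-9377 and mir-2491. A peak interval overlapped at least part of the hairpin in mir-4974, mir-276a, mir-92b, mir-4962 and mir-2491. Among them, the mir-276a, mir-275, mir-966 and mir-2491 summits lay upstream of the hairpin start, and the other 5 lay downstream. The strongest was 417 bp downstream of the mir-9377 start, at rank 878, with a signal of 190.0, 151 and 113 in replicates 1 to 3. The others ranked from 2062 to 6396. The mir-4974 peak was the least even of them, with 64.0, 11.8 and 56.7 and rank 22437 in replicate 2. The summits at mir-9377, mir-4974, mir-92b and mir-8 lay past the end of the cluster, so they were not counted as window peaks. The mir-4974 window was thus counted as holding no IDR peak.

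The plot of peaks by distance extends this to the whole window. In the first kb upstream, clusters had 7.39 peaks per 100 starts and other genes had 13.9. The highest values of clusters were from 3 to 4 kb upstream, with 12.8 against 5.71, and from 5 to 6 kb, with 13.8 against 5.63. From 2 to 3 kb clusters had 7.88 against 5.49, and from 4 to 5 kb 8.37 against 5.65. From 6 to 7 kb clusters had 7.88 against 5.55, and from 8 to 9 kb 9.85 against 5.79. Values were closer from 1 to 2 kb, with 5.42 and 6.06, and from 7 to 8 kb, with 6.40 and 6.24. From 9 to 10 kb they were 6.40 and 5.69. The excess of clusters was thus uneven over the window, and it was not tested. For other genes the annotated start is the transcription start, whereas for microRNA genes it is the 5′ edge of the hairpin.

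**Figure D1:**
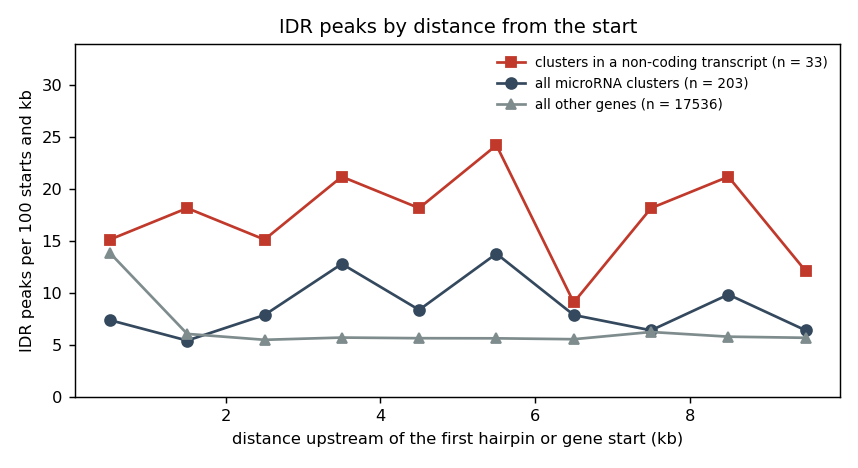
IDR peaks per 100 starts in each kb upstream of the first hairpin of 203 microRNA clusters (circles), of the 33 clusters inside a non-coding transcript (squares) and of 17536 other genes (triangles). The curve of other genes is highest in the first kb, at 13.9 peaks per 100 starts, while that of all microRNA clusters is highest from 5 to 6 kb, at 13.8; the 33 clusters hold few peaks per point, 3 to 8.

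The clusters differed by the transcript that carries them. In 33 clusters (50 hairpins) the annotated same-strand transcripts that overlapped any hairpin were all non-coding, and they include primary transcripts. Single hairpins of such a cluster, such as mir-317, can lie outside them. Of the 33 windows, 17 held an IDR peak, or 51.5% (Wilson 95% interval 35.2 to 67.5). Clusters in an intron of a protein-coding gene had 42 of 95 (44.2%, 34.6 to 54.2), and those in an exon of one had 11 of 31 (35.5%, 21.1 to 53.1). The 44 clusters with no annotated transcript on their strand had 11, or 25.0% (14.6 to 39.4). In replicates 1, 2 and 3, the strongest 6469 calls reached 45.5%, 48.5% and 51.5% of the first kind and 25.0%, 22.7% and 25.0% of the last. The order of these kinds was thus the same in every replicate, although the Wilson intervals overlapped and the difference was not tested.

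Clusters in non-coding transcripts also had the highest mean number of peaks per window. Their 33 windows held 57 IDR peaks, while the 95 in introns of protein-coding genes held 75. That was a mean of 1.73 per window and a median of 1 in non-coding transcripts, where 14 windows held at least 2. The means were 0.789 in introns of protein-coding genes, 0.710 in their exons and 0.523 without a transcript, and each of those medians was 0. The mir-275 and mir-282 windows supplied 17 of the 57, and the other 31 clusters had a mean of 1.29. Among 2448 genes annotated as long non-coding or antisense RNA, 35.5% had an IDR peak in the 10 kb upstream, with a mean of 0.663. The difference between these means was not tested.

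**Figure D2:**
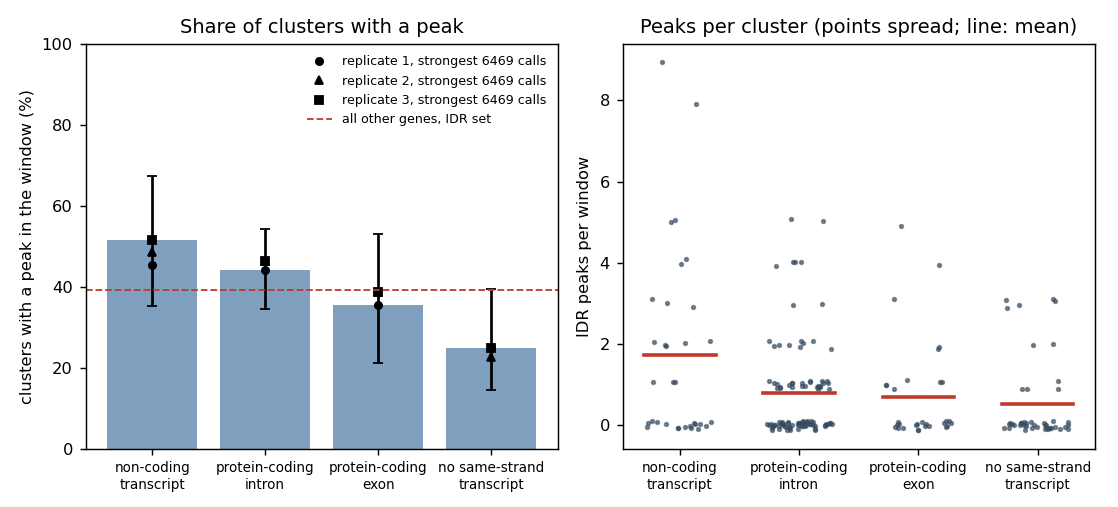
Left, percent of cluster windows with an IDR peak (bars, Wilson 95% intervals) for the 4 kinds of same-strand transcript, with the percent in the strongest 6469 calls of each replicate (symbols) and the percent of all other genes with an IDR peak in the 10 kb upstream (dashed line, 39.2%). Right, IDR peaks in each window (points, spread for visibility) with the mean (line), which runs from 1.73 in non-coding transcripts to 0.523 where no same-strand transcript is annotated.

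The strongest microRNA peak lay at the start of the mir-279 and mir-996 primary transcript. Both microRNAs are known for repressing the formation of carbon dioxide-sensing neurons, and they share the seed shown with their sequences. The hairpins (FBgn0262448 and FBgn0262404; dm6 chr3R:29215585-29217280, plus strand) lie in lncRNA:CR31044, and the summit was 1151 bp upstream of the mir-279 hairpin and 128 bp upstream of the annotated start of that transcript. Its signal was 707, 508 and 662 in replicates 1, 2 and 3 (626 ± 104, SD, n = 3), and it ranked 20, 26 and 19 in their lists and 19 in the IDR set. The values of all replicates were high and close in rank. A further 4 IDR peaks lay from 4483 to 8087 bp upstream, at ranks 1053 to 3764, where 2 neighbouring peaks shared their call in replicates 1 and 2.

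The 201 bp centred on that strongest summit (dm6 chr3R:29214334-29214534, plus strand) are printed from the RefSeq Release 6 genome because the peak sits at a promoter. Capitals mark the TATA box TATAAA.
mir-279 and mir-996 summit: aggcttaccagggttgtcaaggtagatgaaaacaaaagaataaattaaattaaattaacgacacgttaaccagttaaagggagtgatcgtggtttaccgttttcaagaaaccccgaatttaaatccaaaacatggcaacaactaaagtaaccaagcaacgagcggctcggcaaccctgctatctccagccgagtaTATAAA
The first base of that match lay 33 bp upstream of the annotated start of lncRNA:CR31044, on the strand of the transcript. TATAAA occurred on either strand in 39.1% of windows of this size at IDR summits and in 21.8% of windows tiling the genome. The window was 39.8% G or C.

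The mir-282 window held the second-highest number of peaks, 8, and several of them were strong. The hairpin (FBgn0262368; dm6 chr3L:3251022-3251118, plus strand) lies in lncRNA:CR43626. Its strongest peak, 2108 bp upstream of the hairpin and 426 bp upstream of that transcript's start, ranked 77. The signal there was 525, 298 and 401 in replicates 1 to 3 (408 ± 114, SD, n = 3), with ranks of 51, 101 and 96. Peaks at ranks 112, 230, 363 and 549 followed, with mean signals of 360.4 ± 52.1, 273 ± 34.1, 234 ± 93.1 and 194 ± 74.5 (SD, n = 3). They lay from 3347 to 9911 bp upstream. The peak at rank 230 was 340 bp from the start of CG43389 and that at rank 549 was 326 bp from the start of lncRNA:CR45424, so peaks of neighbouring genes and of mir-282 cannot be told apart by position.

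The mir-9a hairpin (FBgn0262373; dm6 chr3L:19565131-19565208, plus strand) makes a microRNA known for restraining the senseless gene in sensory organ precursors. Its window held 3 IDR peaks at ranks 123, 857 and 1310, which lay 4320, 3173 and 7700 bp upstream. The strongest had a signal of 400, 254 and 362 in replicates 1 to 3 (339 ± 75.5, SD, n = 3) and ranks of 122, 161 and 122. It lay 1825 bp upstream of the start of lncRNA:CR45916, the transcript that holds the hairpin, and 379 bp from the start of lncRNA:CR44676. The 201 bp around that summit (dm6 chr3L:19560711-19560911, plus strand) are shown as an example of an intergenic peak away from the primary transcript's start, and they hold none of the 4 motifs searched, so no letter is in capitals.
mir-9a summit: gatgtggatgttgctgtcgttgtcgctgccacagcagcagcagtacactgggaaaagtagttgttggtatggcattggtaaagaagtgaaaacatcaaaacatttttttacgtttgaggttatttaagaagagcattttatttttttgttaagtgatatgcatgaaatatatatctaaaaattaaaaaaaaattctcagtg
The other mir-9 genes, mir-9b and mir-9c, share the mir-9a seed and sit with mir-306 and mir-79 in an intron of grp, a checkpoint kinase gene. Their cluster had 2 IDR peaks in the window at ranks 3135 and 3238, and 1 at rank 829 in the grp promoter, 335 bp upstream of a start. That promoter peak had a signal of 221, 89.1 and 171 in replicates 1 to 3 (160.3 ± 66.6, SD, n = 3).

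The 3 microRNAs of the let-7 complex, mir-100, mir-let7 and mir-125, are made from 1 transcript, lncRNA:let7C, that appears around puparium formation and is needed for the remodelling of nerves and muscles. Their hairpins span dm6 chr2L:18471434-18472424 on the plus strand. The window held 5 IDR peaks, at ranks 2258, 2402, 2719, 3103 and 3502, all in the intron of that transcript and from 3228 to 7655 bp upstream of the first hairpin. The strongest had a signal of 103, 65.6 and 85.5 in replicates 1, 2 and 3, and ranked 2121, 2121 and 2442 there. These were moderate peaks, and each lay at least 8062 bp downstream of the annotated start of the transcript. The strongest window of 201 bp (dm6 chr2L:18468106-18468306, plus strand) was 25.4% G or C, against a median of 33.3% at all IDR summits, and is shown with TATAAA or its reverse complement in capitals.
let-7 complex summit: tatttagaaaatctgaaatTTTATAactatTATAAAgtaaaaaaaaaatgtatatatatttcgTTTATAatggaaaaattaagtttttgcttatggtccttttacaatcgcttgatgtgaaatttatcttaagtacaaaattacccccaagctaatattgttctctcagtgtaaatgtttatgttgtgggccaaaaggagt
This summit is far from the annotated start, and a match to these letters in an A- and T-rich window is a description only.

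The bantam gene, mir-ban (FBgn0262451; dm6 chr3L:642208-642288, plus strand), makes a microRNA that promotes tissue growth and represses the cell death gene hid. Its window held 4 IDR peaks, at ranks 644, 1876, 2536 and 4009. The strongest lay 1424 bp upstream of the hairpin, in an exon of lncRNA:CR43334 and 1070 bp downstream of the nearest annotated start of that gene. Its signal was 211, 124 and 192 in replicates 1 to 3, with ranks of 644, 822 and 624. The others were from 5564 to 8488 bp upstream, in exons of lncRNA:CR43423. The peak at rank 4009 also lay 5250 bp downstream of a more distant start of lncRNA:CR43334, so it was not upstream of every form of that transcript.

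The 2 hairpins of the mir-275 and mir-305 cluster (dm6 chr2L:7425795-7426044, plus strand) lie in lncRNA:CR43857, and mir-305 is known for a role in the stem cells of the adult gut. This window held the most peaks, 9, at ranks 898 to 3913. They were spread from 415 to 6922 bp upstream, of which 4 lay in introns of chm, a histone acetyltransferase gene. The strongest had a signal of 192, 105 and 135 in replicates 1 to 3 (144 ± 44.2, SD, n = 3) and lay 4947 bp upstream of the transcript's start. A peak at rank 2416 lay 344 bp upstream of that start, with 98.2, 72.0 and 73.5. Peaks here were many and moderate, and the best rank of any of the 9 in a replicate was 779.

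Both mir-276 genes, of which mir-276a is known for a part in olfactory memory, had 2 IDR peaks each. One summit of mir-276a (FBgn0266076; dm6 chr3L:10365228-10365325, plus strand) lay 74 bp upstream of the hairpin at rank 4910, with a signal of 57.2, 31.2 and 33.3 in replicates 1 to 3. The other lay 200 bp upstream of the start of lncRNA:CR46006, at rank 3528, with 86.04, 15.6 and 73.9. Replicate 2 was far lower than the others for that second peak and had it at rank 13602 of its list. The mir-276b peaks, at ranks 2356 and 4211, lay in exons of lncRNA:CR46004, 3787 and 4708 bp upstream of its hairpin. The 201 bp at the summit next to the mir-276a hairpin (dm6 chr3L:10365054-10365254, plus strand) hold none of the 4 motifs, and their 3′ end runs into the hairpin.
mir-276a summit: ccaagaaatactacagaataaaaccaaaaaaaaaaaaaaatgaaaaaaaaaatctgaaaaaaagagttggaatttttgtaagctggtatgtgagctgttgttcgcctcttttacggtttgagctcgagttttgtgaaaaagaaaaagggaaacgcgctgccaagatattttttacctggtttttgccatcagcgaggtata
The window next to the hairpin was 33.8% G or C, the median of all microRNA window summits.

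The mir-317, mir-277 and mir-34 cluster spans 9909 bp on chromosome arm 3R (dm6 chr3R:10091126-10101034, plus strand). The mir-34 gene is known for protecting the ageing brain and mir-277 for controlling branched-chain amino acid breakdown. It had 3 IDR peaks, 3355, 8460 and 5983 bp upstream, at ranks 749, 1124 and 2745. The strongest had a signal of 211, 136 and 143 in replicates 1 to 3 (163 ± 41.5, SD, n = 3). It lay 5990 bp upstream of the start of lncRNA:CR43459, in an intron of lncRNA:CR45054. That start of lncRNA:CR43459 is downstream of the mir-317 hairpin. No IDR summit lay inside the span from mir-317 to mir-34.

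**Figure D3:**
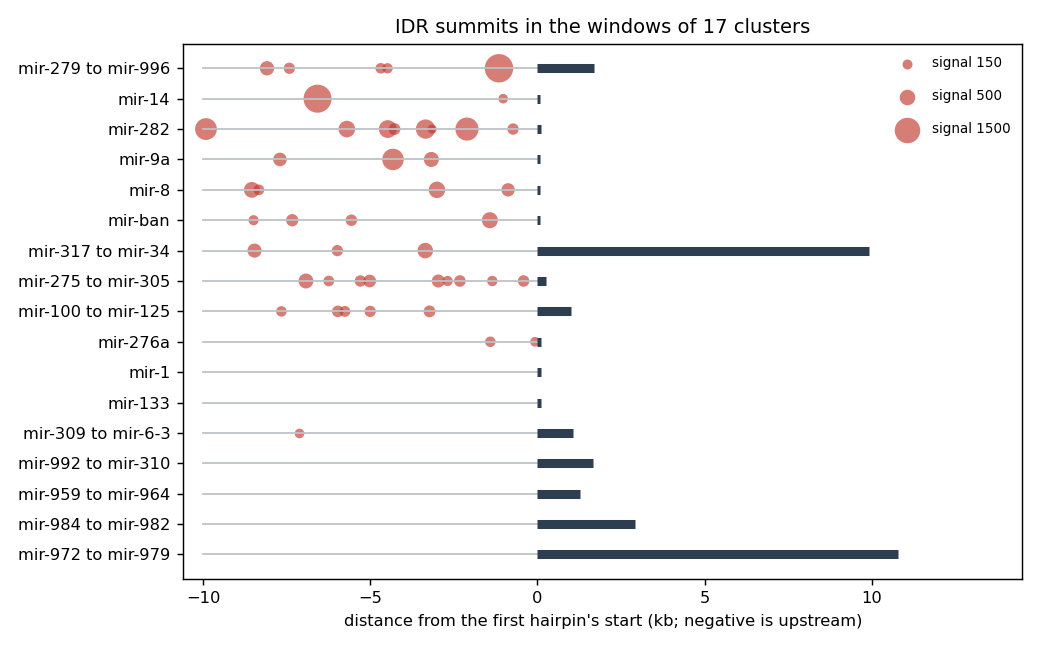
IDR summits (circles, area rising with the pooled signal) in the windows of 17 clusters, by distance from the start of the first hairpin; dark bars are the clusters. The mir-275 and mir-282 windows are filled with 9 and 8 summits, while the windows of mir-1, mir-133 and 4 multi-hairpin clusters are empty.

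The peak of the second-highest rank was in the window of mir-14, a microRNA known for suppressing cell death and for limiting the ecdysone receptor's own amplification. The hairpin lies on chromosome arm 2R in lncRNA:CR43651. The summit at rank 22 had a signal of 610.4, 594 and 631 in replicates 1 to 3 (612 ± 18.6, SD, n = 3) and ranks of 31, 13 and 23. It was 6575 bp upstream of the hairpin and only 229 bp from the start of CG1888, so a peak of CG1888 and one of mir-14 cannot be told apart. The peak at the start of lncRNA:CR43651 itself, 108 bp upstream of it, ranked 5111, with 62.6, 32.0 and 66.3 in the replicates. Both peaks were found in every replicate, and the weaker one ranked 4113, 5281 and 3501.

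The mir-8 gene, a fly member of the family known as mir-200 in vertebrates, controls body size from the fat body. It lies on the same arm in lncRNA:CR43650 and had 4 IDR peaks, at ranks 570, 683, 1427 and 3293. The strongest, 668 bp upstream of the start of that transcript, had a signal of 172, 168 and 241 in replicates 1 to 3 (194 ± 41.2, SD, n = 3). A peak 135 bp upstream of the start, 878 bp before the hairpin, had 125, 78.5 and 119 and held similar ranks in the replicates, 1579, 1631 and 1482.

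A peak within 500 bp of the start of the primary or enclosing non-coding transcript was found for 7 of the 33 clusters of that kind. They were mir-279 with mir-996, mir-282, mir-14, mir-8, mir-276a, mir-275 with mir-305 and mir-4951, which lies in lncRNA:Hsromega, a stress-induced RNA. For mir-4951 the pair of IDR peaks at that start, at ranks 836 and 3272, lay 20433 and 20232 bp from the hairpin, and its own window held none. The first of them had a signal of 206, 72.3 and 185 in the replicates. Among all long non-coding and antisense RNA genes, 9.89% had an IDR peak within 500 bp of a start.

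Host promoters were the other kind of start. Of 100 clusters with at least 1 hairpin in an intron of a same-strand host, 21 (21.0%, Wilson 95% interval 14.2 to 29.98) had an IDR peak within 500 bp of a start of the transcript that contains them. The share of all protein-coding genes with an IDR peak within 500 bp of any of their starts was 17.0%. With every start of the host gene counted, 23 of the 100 clusters had one. The hosts include some non-coding genes, so the sets still differ. Among protein-coding hosts that hold the hairpin in an intron, the strongest peak was at bun, a growth regulator gene that hosts mir-967, at rank 298 and 359 bp upstream of a start. It lay 23848 bp from the hairpin and had a signal of 249, 239 and 271 in replicates 1 to 3 (253 ± 16.3, SD, n = 3). The replicates were close in signal at this promoter.

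Next came spi, which encodes a ligand of the epidermal growth factor receptor and hosts mir-2b-2, mir-2a-1 and mir-2a-2. Peaks at ranks 410 and 465 lay 215 and 324 bp upstream of its starts, and the first had a signal of 266, 152 and 244 in the replicates (221 ± 60.6, SD, n = 3). The MRP promoter, host of mir-9382, had rank 592, with 203, 179.9 and 170.5. For mir-92a and mir-92b, in the jigr1 gene, the promoter peak was weaker, at rank 3122, than an intronic peak at rank 820. That intronic peak had a signal of 171, 133 and 168 in the replicates (157 ± 21.1, SD, n = 3). For mir-33, in an intron of SREBP, a regulator of lipid synthesis, the peaks lay 573 bp downstream of the nearest start at rank 714 and 220 bp from the starts of Gyc76C and CG42637 at rank 2726.

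**Figure D4:**
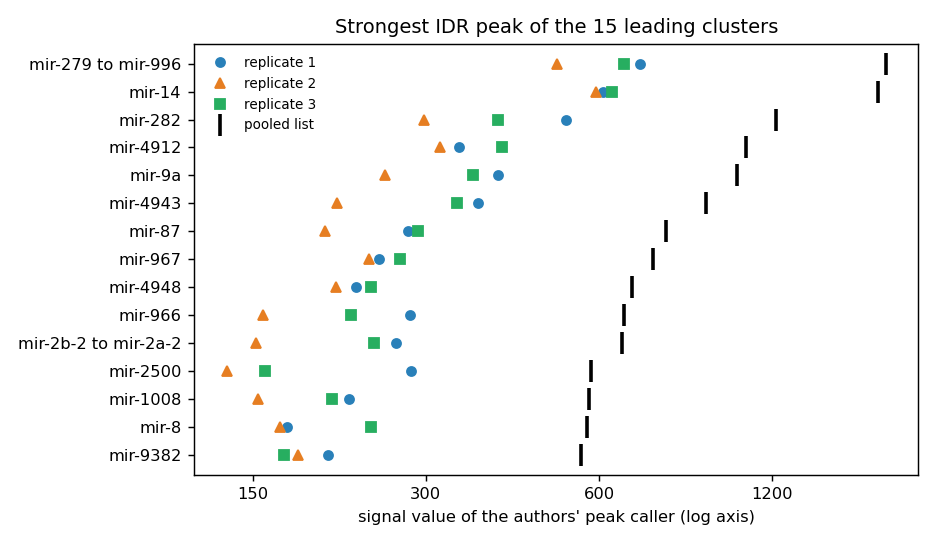
Signal of the strongest IDR peak of the 15 leading clusters in each replicate's own list (circles, triangles, squares) and in the pooled list (bars), on a log axis. Replicate 2 was the lowest of the 3 for 14 of the 15 clusters, and the pooled value was above every replicate's.

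Several strong window peaks sat at the start of a gene that is neither a microRNA nor its host. Of the 177 window peaks, 70 (39.5%) lay within 500 bp of the start of a gene other than a microRNA, hosts included, against 35.1% of the IDR set. For 28 of the 70, the nearest start was that of the host or primary transcript. The mir-4912 window held a peak at rank 108, 154 bp from the start of tank, with a signal of 343, 318 and 407 in the replicates. The mir-87 peak at rank 265 lay 23 bp from the start of CG4658, and that of mir-1008 at rank 565 lay 107 bp from the start of Pex6, a peroxisome biogenesis gene. The mir-4943 peak at rank 175 was instead at its host, 403 bp from the start of CG5953, whose exon holds the hairpin. Its signal was 369, 210.4 and 340 in the replicates. Away from any start within 500 bp were the mir-4948 peak at rank 368, in an intron of the circadian kinase gene dco, the mir-966 peak at rank 391, in an intron of CG9135, and the mir-2500 peak at rank 546, in an intron of CG3764. By feature, 80 of the 177 summits lay in introns, 61 in intergenic sequence, 19 in non-coding exons and 17 in exons of protein-coding transcripts.

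The lists of known roles were described by counts beside those of all clusters, of which 83 of 203 had an IDR peak in the window or a host promoter, with a median of 0 peaks. In the list linked to ecdysone and developmental timing, all 4 clusters had a peak, 14 in all and a median of 3.5, and each also had a strongest-6469 call in all 3 replicates. All 4 are of the kind in non-coding transcripts, where 17 of 33 windows (51.5%) held a peak and the median was 1. Whether the list differs from that kind was not tested. In the list of growth and metabolism, 5 of 6 clusters had one, with a median of 2.5, and mir-278 had none. These lists overlap in mir-14, mir-8 and mir-34.

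In the cell death list, 8 of 10 clusters had a peak, with 13 peaks and a median of 1. The windows of 6, 7 and 8 of the 10 held a strongest-6469 call in replicates 1, 2 and 3. The 8 include the mir-309 to mir-6-3 cluster, whose only IDR peak was placed high by replicate 3 alone. This list is mainly the family with seed AUCACAG, whose members repress the death genes reaper, hid, grim and sickle. Over the 7 clusters with that seed, 6 had a peak in the window or a host promoter, and mir-13b-2 had none. The mir-2b-2 to mir-2a-2 cluster led with the spi peaks, and mir-11, in an intron of the cell cycle factor gene E2f1, had 1 at rank 3243. The mir-308 peaks were at the promoter of its host RpS23, a ribosomal protein gene, at ranks 2024 and 6314, and the second was at rank 28119 in replicate 2.

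In the list of nervous system and sense organs, 9 of 15 clusters had a peak, 20 in all. Those of mir-279 with mir-996 and of mir-9a were the strongest. The clusters of mir-1000, mir-137, mir-190, mir-219, mir-958 and mir-210 had none. In the muscle list, 1 of 3 clusters had a peak, that of mir-9a with the 3 peaks given with its sequence. It had a strongest-6469 call in every replicate, while mir-1 and mir-133 had no IDR peak. The best call in the mir-1 window ranked 8185, 15031 and 12847 in replicates 1 to 3, and the mir-133 window held no call of any rank in any replicate.

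Among the microRNAs of the Hox complexes, which repress neighbouring Hox genes or lie among them, mir-10 had 2 IDR peaks at ranks 4112 and 5297 and mir-iab-8 had 1 at rank 5484, while mir-993 and mir-iab-4 had none. The mir-10 peaks were weak, with signals of 36.4, 43.1 and 63.4 for the first of them in the replicates. None of the Hox clusters had a strongest-6469 call in replicate 1, and 2 had one in replicates 2 and 3.

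Of the 3 clusters with the most hairpins, 1 had an IDR peak in its window. Over all 203 clusters, 81 windows held one and the median was 0 peaks. The mir-309 to mir-6-3 cluster, whose 8 hairpins act in the early embryo to clear maternal messenger RNAs, had 1 IDR peak at rank 5074, which was 166 bp from the start of hrg. Its signal was 12.4, 18.8 and 60.8 in the replicates and its rank there was 25172, 10176 and 3923, so replicate 3 alone placed it high. Its mean signal was 30.6 ± 26.3 (SD, n = 3) and 15.6 without replicate 3. The mir-992 to mir-310 cluster of 7 hairpins and the mir-972 to mir-979 cluster of 12 had none. All 4 clusters of the list known mainly from testis, the mir-992 to mir-310 and mir-972 to mir-979 clusters among them, lacked an IDR peak. They hold 21 listed hairpins. Where their windows held a call, its rank was 17766 or further down the list, except in the mir-992 to mir-310 window, where the best ranks were 6210, 13684 and 9812.

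Mirtrons, whose hairpins come from introns released by splicing without Drosha, had a peak in 5 of 15 clusters. The strongest were those of mir-1008 at rank 565, mir-1009 at rank 1500 and mir-1014 at rank 1879. The mir-1009 summit lay in the promoter of its host CG3860, 231 bp upstream of the start, with 103, 74.1 and 145 in the replicates. The mir-1014 summit lay 9286 bp upstream of the hairpin and 1298 bp from the start of Smvt, with 116, 68.8 and 91.98.

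Of 28 seeds shared by hairpins of more than 1 cluster, 9 had a peak in every cluster, 11 in some and 8 in none. Over all clusters, 83 of 203 had a peak in the window or a host promoter. The seeds are not separate cases, because the same clusters can share more than 1 seed, as those of mir-276a and mir-276b do. The split was not tested. Both clusters with CUUUGGU had a peak, and so did both with AGGAACU. The seed of mir-279 also occurs in mir-286 of the mir-309 cluster, and both of those clusters had a peak. The seed AUUGCAC divided, with 4 peaks for the mir-92a and mir-92b cluster and none for the mir-310 cluster. Both mir-31 genes lacked an IDR peak.

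Windows without an IDR peak were mostly without a strong call in any replicate. Of the 122, 107 had no call among the strongest 6469 of any replicate, 9 had one in 1 replicate, 5 in 2 and 1 in all 3. Calls of any rank reached 78.8%, 86.2% and 72.4% of all cluster windows in replicates 1 to 3, against 77.0%, 81.2% and 73.7% of other genes. No call of any rank in any replicate was found in 13 windows, among them those of mir-133, mir-31a, mir-285, mir-989 and mir-1006. Of these 13, mir-10404-3, mir-10404-4 and mir-10404-5 are copies with the same seeds on both arms, and how reads matching several places were treated is not known here.

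The sequence at window summits resembled that of other IDR summits. The median content of G or C in 201 bp was 33.8% at the 177 window summits, 33.3% at all IDR summits and 42.3% in windows tiling the genome. Motifs were searched on both strands. The TATA box TATAAA occurred in 38.4% of window summits and 39.1% of IDR summits, and the GAGA repeat GAGAGAG in 3.95% and 4.03%. The DNA replication-related element TATCGATA occurred in 1.13% and 1.33%. The CA repeat CACACACA occurred in 6.78% of window summits (12 of 177), 3.65% of IDR summits and 4.02% of genome windows, and this difference was not tested. Matches of 1 motif, or of different motifs such as the TATA box and TATCGATA, can share bases, and a match is not a binding site.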

How the data were processed

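ChIP-seq peak lists of 3 biological replicates of 1 group were used. Per the deposited README files, the authors made narrowPeak lists on dm6: a relaxed list for each replicate and for pooled reads, and an optimal IDR set. The deposited signal value is that of the authors' peak caller. Which aligner, peak caller, cut-offs, IDR threshold and controls they used was not given in the sources used here, and depth is unknown. Lists on dm3 were not used.

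Summits were compared with the Ensembl release 115 annotation (without transposable elements) and the RefSeq Release 6 sequence, using Python 3.11.15, pandas 2.3.3, numpy 2.4.6 and scipy 1.17.1. Coordinates are 1-based. The value of an IDR peak in a replicate is that of the overlapping call with the nearest summit. The counting was tested on simulated data. With 1 group no test was run.

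The members, role lists and motifs were chosen with earlier results of these data known. Clusters were named by rule: the 15 with the strongest IDR peak, microRNAs with a summit within 500 bp, the 3 with most peaks, the 3 with most hairpins, the 3 leading members of each role list and, where there were fewer, the first 2 without a peak. Other names, such as the let-7 complex, bantam and mir-4951, and the grouping by kind of transcript were chosen after their values were seen. Alternatives changed the joining distance, window, peak set, overlap rule and replicates.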

Additional observations from a re-analysis of the deposited data

How the results depend on the processing

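The 81 cluster windows with an IDR peak (83 with host promoters) depended on the window's reach. With 5 kb upstream they were 51 (55 with host promoters), and other genes 26.8%. With 2 kb they were 22 (33), or 10.8% of clusters against 17.1% of other genes. The 3234 strongest IDR peaks gave 53 windows (26.1%, against 25.9% of other genes). Peaks in windows fell from 177 to 87 with 5 kb and 97 with those 3234 peaks, and those of clusters in non-coding transcripts from 57 to 29 and 36. The 9 microRNAs with a summit within 500 bp became 3 with the 3234 peaks and 18 within 1000 bp. Smaller reach or fewer peaks can only lower such counts. The other 35 alternatives stayed within 1.5 times the main count, including a joining distance of 1 kb, any overlap and leaving out summits at another gene's start (66 windows). Peaks were not called again to leave out a replicate. The IDR peaks overlapped by a strongest-6469 call in each of the other replicates were kept, 4937 to 5001 peaks. They gave 68 to 71 windows, or 33.5% to 35.0% of clusters, against 32.2% to 32.9% of other genes. Of the mean signals of the strongest peaks of 29 named clusters, that of mir-309 to mir-6-3 moved by over 1.5 times, from 30.6 to 15.6 without replicate 3. The alternatives for clusters in non-coding transcripts were chosen after seeing the data. No paired analysis was possible because there was only 1 group.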
